A study of Mus musculus with 3 samples.

Results

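Collagen genes were taken as the non-control array probes whose gene symbol has the form Col, a number, a, a number, which gave 44 genes and 66 probes among 36981 genes and transcripts on the array. A symbol came from the RefSeq transcript that a probe is listed for or, for 3 probes of Col12a1 and Col19a1, from the deposited gene table. The study compared whole E8.75 mouse embryos (E, embryonic day), wild-type against Brpf1-deficient, on 3 Agilent arrays. Brpf1 encodes a scaffold subunit of histone acetyltransferase complexes. Each array held a pair, with wild-type RNA labelled with the green dye Cy3 and Brpf1-deficient RNA with the red dye Cy5, from 350 ng of total RNA per labelling. No embryo was treated, the dyes were not swapped, and all 3 arrays shared 1 slide and 1 scan time, so dye and genotype cannot be told apart. The labels do not give the allele, the strain, litters, or whether an RNA came from 1 embryo or a pool, and p-values therefore measure only the spread between these 3 pairs, which may be technical.

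Each ratio is given as log2 of Cy5 over Cy3 after normalization, and a value below 0 means that the wild-type channel was the brighter. Brpf1 itself was measured first as a check of the labels. Its log2 ratio was 2.01 in pair 1, 1.43 in pair 2 and 1.06 in pair 3, with a mean of 1.499 ± 0.19 (moderated SE, n = 3), a 2.83-fold higher signal in Cy5 (limma adjusted p = 0.0405). The targeted transcript was therefore higher, in every pair, in the channel labelled Brpf1-deficient; where its probe lies relative to the disrupted part of the gene was not analysed here. All directions below rest on the labels as deposited. All 9 markers chosen to check the tissue, among them Sox2, Pax6, Tbx5 and Hbb-bh1, were well above background in both channels of every array.

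Collagens are secreted or membrane-bound proteins whose alpha chains wind into triple helices. Fibrillar chains build the tension-bearing fibrils of mesenchyme, cartilage and bone, type IV chains build the sheet-like network of basement membranes, fibril-associated collagens with interrupted helices (FACIT) decorate fibril surfaces, and type VI chains form beaded filaments around cells. At this stage of development the notochord and somites make type II collagen, mesenchyme makes types I, III and V, and epithelia, vessels and the parietal endoderm lay down type IV.

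Promoter sequence is shown for 3 members on which the results below turn: 2 fibrillar chains whose ratio changed sign between pairs, and the type VI chain with the smallest p-value of its class. Each run is the 250 bases before the annotated start, written 5′ to 3′ on the gene's own strand, from RefSeq on build GRCm38.p6; capitals mark matches, on either strand, to CCAAT (the CCAAT box), GGGCGG (the GC box) or TATAAA (the TATA box). The windows are chr6:4505368-4505617 on the plus strand for Col1a2, chr1:45311288-45311537 on the plus strand for Col3a1 and chr10:76726045-76726294 on the minus strand for Col6a1.
Col1a2: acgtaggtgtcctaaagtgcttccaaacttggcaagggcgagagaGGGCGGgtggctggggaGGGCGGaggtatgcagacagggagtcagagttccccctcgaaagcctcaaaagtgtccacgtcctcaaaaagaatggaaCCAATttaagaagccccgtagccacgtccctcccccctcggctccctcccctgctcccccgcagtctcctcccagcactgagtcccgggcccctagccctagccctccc
Col3a1: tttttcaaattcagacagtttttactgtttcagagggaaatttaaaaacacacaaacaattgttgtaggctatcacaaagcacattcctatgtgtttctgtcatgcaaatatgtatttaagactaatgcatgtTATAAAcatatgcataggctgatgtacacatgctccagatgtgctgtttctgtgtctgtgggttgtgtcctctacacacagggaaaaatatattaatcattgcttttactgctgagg
Col6a1: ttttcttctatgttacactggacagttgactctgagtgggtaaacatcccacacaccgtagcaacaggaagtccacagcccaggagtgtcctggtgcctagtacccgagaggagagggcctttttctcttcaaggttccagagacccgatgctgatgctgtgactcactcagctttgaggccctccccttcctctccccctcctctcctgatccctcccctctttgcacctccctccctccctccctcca

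The Col1a2 window held GGGCGG at 205 and 188 bases and CCAAT at 109 bases before the start, the Col3a1 window held TATAAA at 117 bases before it, and the Col6a1 window held none of the 3 motifs; no matches overlapped. The table gave 38 windows for 35 of the 44 collagen genes. CCAAT lay in 13 of these 38 windows (34.2%) and in 33.8% of all 32851 windows, and TATAAA in 5 (13.2%) and in 12.4%. GGGCGG lay in 22 of the 38 (57.9%) and in 32.7% of all windows. A match describes the letters only, and a window without one says only that these letters are not in it.

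A gene was tested when 1 of its probes stood well above background, in either dye, on at least 2 arrays in that dye, and its brightest such probe represented it. By this rule 33 of the 44 collagen genes were measured, 27 of them well above background in both channels on all arrays, and no collagen spot was saturated. The 11 that did not pass were Col5a3, Col4a3, Col6a4, Col6a5, Col6a6, Col9a3, Col19a1, Col8a1, Col10a1, Col15a1 and Col28a1. Their 17 probes had median intensities of 56 to 112.5 in Cy3 and 98 to 225 in Cy5, against medians over all probes of 134 to 144.5 in Cy3 and 220 to 243 in Cy5. Those genes were dim in both dyes, so their ratios carry little information about either genotype.

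Across the 33 measured collagen genes the Cy5 signal tended to lie below Cy3, by a modest amount and mostly in pairs 1 and 2. The median log2 ratio was -0.27, with -0.28 in pair 1, -0.65 in pair 2 and 0.04 in pair 3, while over all 23554 genes and transcripts it was -0.02, with -0.02, -0.04 and -0.01. The mean was below 0 for 27 of the 33 genes (81.8%), against 54.4% of all genes. No collagen gene passed the threshold (limma, adjusted p under 0.05 over all genes tested), which 1.38% of all genes passed: 304 higher (1.29%) and 22 lower (0.0934%) in Cy5. At an unadjusted p under 0.05 in the same limma fit, 11 collagen genes were lower (33.3%, against 9.12% of all genes) and 0 were higher (against 8.23%).

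Those 11 were the fibrillar Col2a1, Col5a2, Col11a1, Col11a2 and Col24a1, the type VI chain Col6a1, the FACIT chains Col9a1, Col16a1 and Col22a1, and Col7a1 and Col18a1. The count was 6 without pair 1 (18.2%, against 4.26% of all genes), 5 without pair 2 (15.2%, against 8.35%) and 16 without pair 3 (48.5%, against 8.11%). It was 6 (18.2%, against 8.62%) when the prior variance followed intensity, and 12 (36.4%, against 18%) on the scanner's processed signals. No collagen gene passed the adjusted threshold under any of these settings, and neither did any gene, so the 326 calls over all genes also depended on the choice. The smallest adjusted p of a measured collagen gene was 0.147, for Col7a1.

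The pairs did not order the collagens alike. The ratio was below 0 in all 3 pairs for 10 genes (30.3%, against 23.8% of all genes) and above 0 in all 3 for Col14a1 and Col23a1 (6.06%, against 19.7%). Another 16 genes (48.5%, against 12.6%) were below 0 in pairs 1 and 2 and above 0 in pair 3, a split that was noticed after the values were seen. Some lay barely above 0 in pair 3, such as Col6a2 at 0.0043 and Col17a1 at 0.02. On the processed signals Col4a6, Col5a2, Col6a2, Col11a1 and Col17a1 were below 0 in pair 3. Col14a1 was there -0.14, -0.11 and 1.58 and Col23a1 -0.04, -0.09 and -0.05, so neither was above 0 in all 3 pairs. Among the 10 genes below 0 in all 3, the sign in pair 3 depended on the probe for Col16a1 and Col18a1. Their second probes were at 0.11 and 0.04 in that pair. The SD over pairs had a median of 0.41 among the collagens and 0.159 among all genes. Across the 33 genes, which share their arrays and are not independent, Pearson's r was 0.597 between pairs 1 and 2, -0.358 between pairs 1 and 3 and -0.0293 between pairs 2 and 3; over all genes it was 0.409, 0.335 and 0.152.

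**Figure D1:**
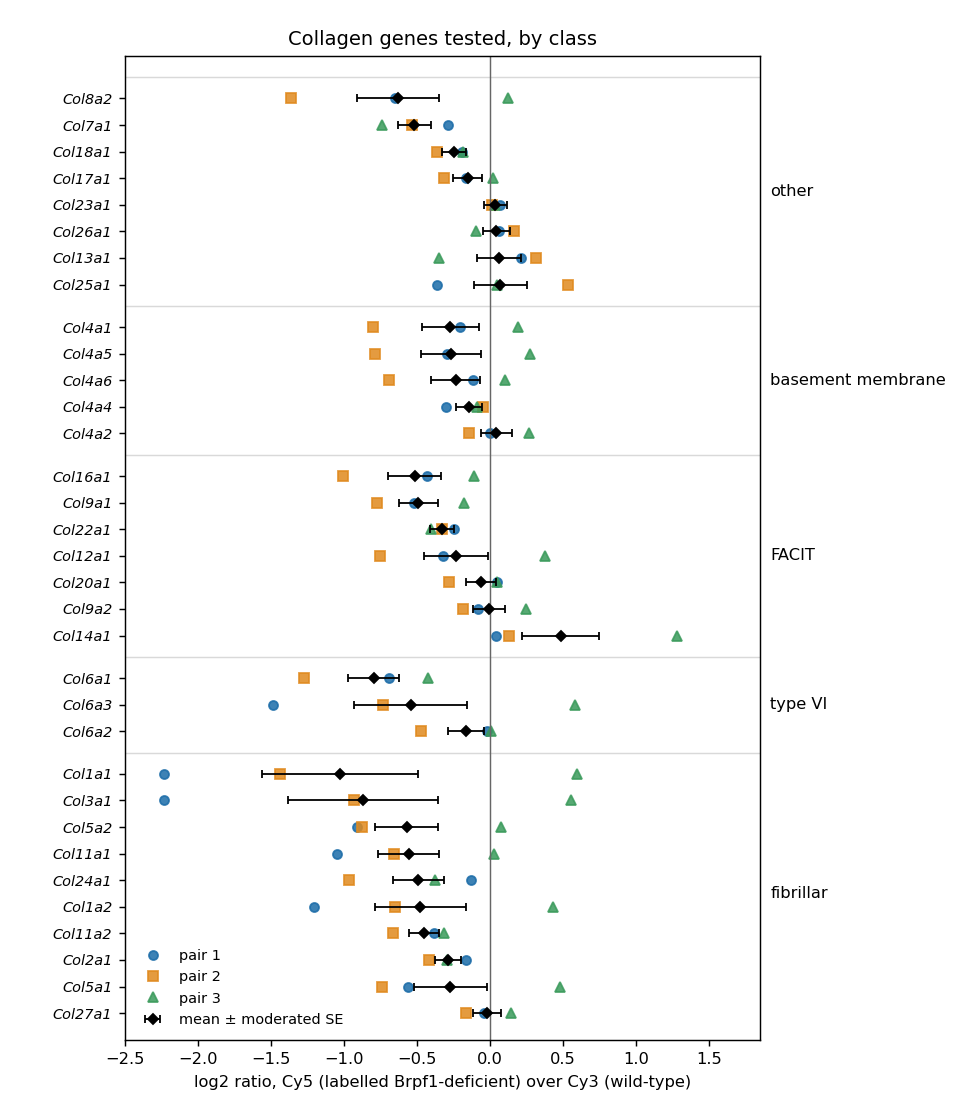
Normalized log2 ratio of Cy5 (labelled Brpf1-deficient) over Cy3 (wild-type) for the 33 measured collagen genes, grouped by class, with 1 point for each pair and the mean ± moderated SE (n = 3) in black. All 10 fibrillar means lie below 0, and for Col1a1 and Col3a1 pair 3 lies on the other side of 0 from pairs 1 and 2.

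The fibrillar median was lower in pairs 1 and 2 than in pair 3. Of the 11 fibrillar genes 10 were measured, each with a mean below 0, and the class median was -0.48, with -0.73 in pair 1, -0.70 in pair 2 and 0.11 in pair 3; without pair 3 it was -0.75. Its members differed in the signs of their pairs. Col2a1, Col11a2 and Col24a1 were below 0 in every pair, whereas the other 7 were below 0 in pairs 1 and 2 and above 0 in pair 3. Among these 7, Col5a2 and Col11a1 lay at 0.07 and 0.03 in pair 3, and below 0 there on the processed signals.

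Col1a1, Col1a2 and Col3a1, the chains of the type I and type III fibrils of loose mesenchyme, had the highest SD over pairs of the class and are given in full for that reason, chosen after their values were seen. For Col1a1 the measured median intensity in Cy3 was 51569, 59271 and 28279.5 in pairs 1 to 3, and in Cy5 it was 24295.5, 31805 and 87235. The wild-type channel was the brighter in pairs 1 and 2 and the dimmer in pair 3, and both channels changed between the pairs. After normalization the Col1a1 ratio was -2.23, -1.44 and 0.59, that is 4.69-fold and 2.72-fold brighter in Cy3 in pairs 1 and 2, and 1.51-fold brighter in Cy5 in pair 3. Its mean of -1.03 ± 0.53 (moderated SE, n = 3; SD 1.46) was smaller than the SD over pairs, and it did not pass (limma adjusted p = 0.380).

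Col3a1 followed the same course. Its intensities were 35551.5, 40430.5 and 19345 in Cy3 and 15614, 29644.5 and 55080 in Cy5, with ratios of -2.23, -0.93 and 0.56. The mean was -0.87 ± 0.51 (moderated SE, n = 3; limma adjusted p = 0.425), with pair 3 again apart from the other pairs. For Col1a2, the second chain of type I collagen, the intensities were 54746, 61425.5 and 38454 in Cy3 and 56474, 60411.5 and 109925 in Cy5. Normalization matters for this bright spot: Cy5 was generally brighter than Cy3 at its intensity, and the nearly equal raw signals of pairs 1 and 2 became ratios of -1.21 and -0.65, beside 0.43 in pair 3. The mean of Col1a2 was -0.48 ± 0.31 (moderated SE, n = 3; limma adjusted p = 0.463).

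Leaving out 1 pair moved these values more than any other choice. Without pair 3 the mean of Col1a1 was -1.84 and without pair 1 it was -0.42, and Col3a1 ranged from -1.58 to -0.19 and Col1a2 from -0.93 to -0.11 over the same 3 settings. The 1075 genes of the same brightness as Col1a1 and Col1a2, with a mean log2 intensity between 15 and 16, had medians of -0.05, -0.10 and -0.06 in the 3 pairs. No measured collagen gene was brighter than 17, where all genes had medians of 0.88, 0.69 and 0.70.

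**Figure D2:**
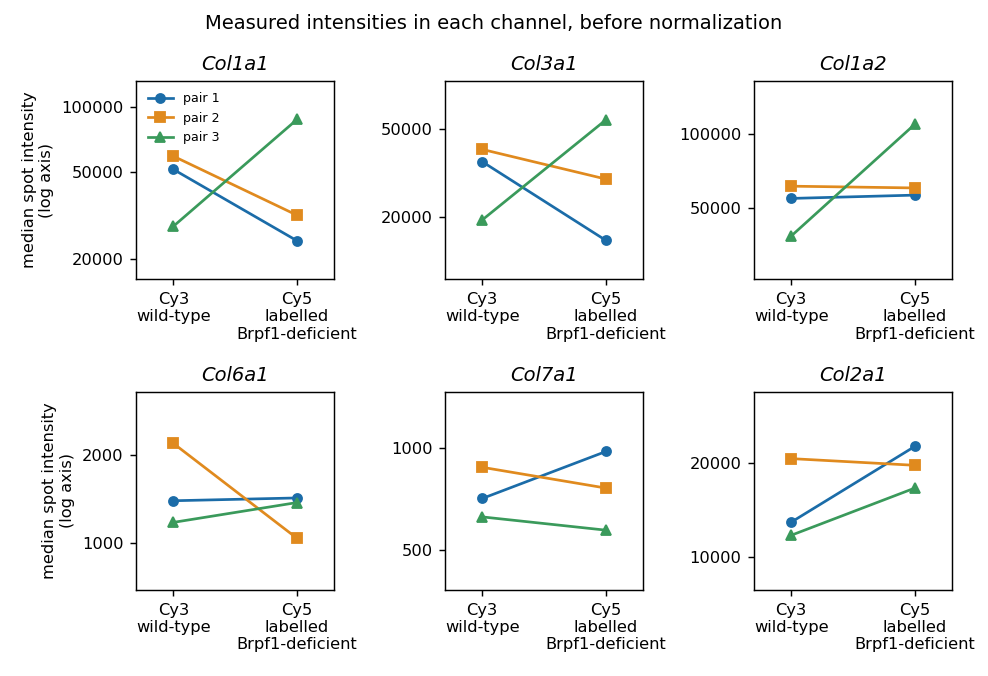
Median spot intensity before normalization (log axis) in the Cy3 and Cy5 channel of each pair for 6 collagen genes, with a line for each pair. The lines of Col1a1 and Col3a1 fall in pairs 1 and 2 and climb in pair 3, from 28279.5 to 87235 for Col1a1, while Col7a1 climbs in pair 1 and falls in pairs 2 and 3 before the dye correction.

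Other fibrillar chains had the same order of signs with a smaller SD over pairs. Col5a2 and Col5a1, the type V chains that nucleate type I fibrils, had means of -0.57 ± 0.22 and -0.27 ± 0.25 (moderated SE, n = 3). In single pairs Col5a2 was -0.91, -0.88 and 0.07 (limma adjusted p = 0.279), with pairs 1 and 2 alike and pair 3 near 0. Col11a1, a type XI chain that limits fibril width, had a mean of -0.56 ± 0.21 (moderated SE, n = 3; limma adjusted p = 0.281), and Col27a1, a fibrillar chain of cartilage, -0.02 ± 0.09 (moderated SE, n = 3).

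The 3 fibrillar chains below 0 in every pair come next. Col2a1, the type II chain of notochord and cartilage, had intensities of 12903.5, 20679 and 11707 in Cy3 and 22646.5, 19677 and 16621.5 in Cy5, and ratios of -0.16, -0.42 and -0.29. Every pair was below 0 within a narrow range, with a mean of -0.29 ± 0.09 (moderated SE, n = 3; limma adjusted p = 0.225). Col11a2, which joins type II fibrils, was -0.38, -0.67 and -0.31 (mean -0.45 ± 0.10, moderated SE, n = 3; limma adjusted p = 0.158). It was dim, at 169 to 236 in Cy3 and 222 to 240 in Cy5, and it was well above background in Cy5 on 2 of the 3 arrays. Col24a1, a fibrillar chain known from developing bone and eye, was -0.13, -0.97 and -0.38 (mean -0.49 ± 0.17, moderated SE, n = 3; limma adjusted p = 0.263), with pair 2 the lowest.

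Type VI collagen had a median of -0.54 over the 3 of its 6 genes that were measured, with -0.69, -0.73 and 0.0043 in pairs 1 to 3. It was -0.98 without pair 3, -0.23 without pair 1 and -0.21 with no filter on dim probes. Under the latter 2 settings the fibrillar median was lower, at -0.33 and -0.48. Col6a1 had the smallest p-value of the class. Its intensities were 1391.5, 2184.5 and 1174 in Cy3 and 1422.5, 1036 and 1372 in Cy5, giving ratios of -0.69, -1.28 and -0.42. All 3 pairs were below 0, and the mean was -0.80 ± 0.18 (moderated SE, n = 3; limma adjusted p = 0.150), that is 1.74-fold brighter in Cy3. The mean of Col6a1 ranged from -0.98 without pair 3 to -0.56 without pair 2.

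Col6a3, the long chain that assembles with Col6a1 and Col6a2, had intensities of 890, 1091 and 579 in Cy3 and 526, 824 and 1380 in Cy5. Its ratios of -1.49, -0.73 and 0.59 had the sign pattern of Col1a1 and Col3a1, and the mean was -0.54 ± 0.39 (moderated SE, n = 3; limma adjusted p = 0.496). Without pair 3 the mean of Col6a3 was -1.11, and without pair 1 it was -0.07. Col6a2 was -0.021, -0.47 and 0.0043 (mean -0.16 ± 0.12, moderated SE, n = 3; limma adjusted p = 0.520), so pair 2 alone lay clearly below 0. It was dim, at 167 to 224 in Cy3 and 261.5 to 304 in Cy5, and well above background in Cy5 on 2 of the 3 arrays. On the processed signals the mean of Col6a2 was -0.44.

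Among the FACIT chains 7 of 9 were measured and the median was -0.23, with -0.25, -0.33 and 0.05 in pairs 1 to 3; without pair 2 it was 0.03. Col22a1, a chain of tissue junctions, varied least among those named here, at -0.25, -0.33 and -0.41 (mean -0.33 ± 0.08, moderated SE, n = 3; limma adjusted p = 0.179). Col16a1 was -0.43, -1.005 and -0.11 (mean -0.51 ± 0.18, moderated SE, n = 3; limma adjusted p = 0.261), and its other measured probe averaged -0.21. Both chains were below 0 in every pair.

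Type IX collagen sits on type II fibrils, and its Col9a1 chain was -0.52, -0.77 and -0.18 (mean -0.49 ± 0.13, moderated SE, n = 3; limma adjusted p = 0.194). A second Col9a1 probe averaged 0.02, on the other side of 0. It was dim, at 121.5 to 138 in Cy3, and well above background in Cy5 on 1 array, so its ratio carries little information. Col14a1, which binds type I fibrils, had a mean above 0, at 0.04, 0.13 and 1.28 (mean 0.48 ± 0.26, moderated SE, n = 3; limma adjusted p = 0.393), with pair 3 well above the others. Without pair 3 its mean was 0.09. A second Col14a1 probe was -0.02, 0.06 and 0.95 (mean 0.33). On the processed signals the first probe was -0.14, -0.11 and 1.58, so the signs of pairs 1 and 2 depended on the processing. Col12a1, the close relative of Col14a1, had a mean of -0.23 ± 0.22 (moderated SE, n = 3), and Col9a2 and Col20a1 had means of -0.01 ± 0.11 and -0.06 ± 0.10 (moderated SE, n = 3). In Cy5 Col20a1 was not well above background in any pair, and its sign differed between pairs.

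Basement membrane chains were measured for 5 of 6 genes, with a median of -0.24 and pair medians of -0.20, -0.69 and 0.19, so pair 2 was the low one in this class; without pair 2 the median was -0.01 and without pair 3 it was -0.40. Col4a1, the main chain of embryonic basement membranes, was -0.20, -0.80 and 0.19 (mean -0.27 ± 0.20, moderated SE, n = 3; limma adjusted p = 0.504). Its partner Col4a2 had a mean of 0.04 ± 0.11 (moderated SE, n = 3), which turned negative on the processed signals and without pair 3. Col4a5 was -0.30, -0.79 and 0.27 (mean -0.27 ± 0.21, moderated SE, n = 3; limma adjusted p = 0.525), much as Col4a1.

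Col4a6, which is expressed beside Col4a5 in epithelial basement membranes, was -0.12, -0.69 and 0.10 (mean -0.24 ± 0.17, moderated SE, n = 3; limma adjusted p = 0.494). Its second probe averaged 0.29 and was above 0 in each pair, so the sign of Col4a6 depended on the probe, and the mean of both was 0.03. Col4a4 was -0.30, -0.04 and -0.09 (mean -0.14 ± 0.09, moderated SE, n = 3; limma adjusted p = 0.451). Its Cy5 signal was not well above background in any pair, so its ratio is uncertain on that side.

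Of the remaining 12 genes 8 were measured, with a median of -0.06. Col7a1, the chain of the anchoring fibrils that fasten epithelium to the matrix, had intensities of 710.5, 878 and 627 in Cy3 and 977.5, 762.5 and 573 in Cy5. Its ratios were -0.28, -0.53 and -0.74, below 0 in each pair and lowest in pair 3, where the fibrillar chains of mesenchyme lay above 0. The mean was -0.52 ± 0.11 (moderated SE, n = 3; limma adjusted p = 0.147), or 1.43-fold brighter in Cy3, and it ranged from -0.64 to -0.41 with 1 pair left out.

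Col18a1, a basement membrane collagen that carries heparan sulphate, was -0.19, -0.36 and -0.19 (mean -0.25 ± 0.08, moderated SE, n = 3; limma adjusted p = 0.255). Its second probe was -0.08, -0.31 and 0.04 (mean -0.12). Col8a2, a short-chain collagen of sheet-like networks, was -0.65, -1.36 and 0.12 (mean -0.63 ± 0.28, moderated SE, n = 3; limma adjusted p = 0.329), but its second probe averaged 0.05. Of the transmembrane chains, Col17a1 of hemidesmosomes was -0.17, -0.31 and 0.02 (mean -0.15 ± 0.10, moderated SE, n = 3; limma adjusted p = 0.452). Its mean on the processed signals was -0.93. Col17a1 and Col25a1 were dim, each well above background in Cy5 on 1 array. The means of Col13a1, Col23a1 and Col25a1 were 0.06 ± 0.15, 0.04 ± 0.08 and 0.07 ± 0.18 (moderated SE, n = 3), and that of Col26a1 was 0.04 ± 0.09 (moderated SE, n = 3). These last 4 changed sign under at least 1 other setting.

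Chains that share a molecule or a fibril were then set against each other within each pair, for 9 partner pairs, by an exact two-sided sign-flip test over the 3 array pairs. With 3 pairs this test cannot go below 0.25, and the smallest adjusted p over the 9 comparisons was 0.5625, so no difference could pass; the values are descriptive. Col6a1 lay below Col6a2 by 0.67, 0.80 and 0.43 on the log2 scale, and Col9a1 below Col9a2 by 0.44, 0.59 and 0.43. Col4a1 lay below Col4a2 by 0.21, 0.66 and 0.07, and Col5a1 above Col5a2 by 0.35, 0.14 and 0.41. Each of these 4 differences kept its sign in all 3 pairs. That of Col9a1 rests on its brighter probe: the second Col9a1 probe, which was dim, was 0.01, -0.07 and 0.11, against -0.08, -0.18 and 0.25 for Col9a2. That of Col6a1 is taken against a dim Col6a2 probe. On the processed signals Col6a1 was -0.88, -1.45 and -0.57, and Col6a2 -0.18, -1.07 and -0.08.

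Other partners crossed over. Col1a1 minus Col1a2 was -1.02, -0.79 and 0.16, Col3a1 minus Col5a2 was -1.33, -0.05 and 0.48, and Col6a1 minus Col6a3 was 0.79, -0.55 and -1.01. Col11a1 minus Col11a2 was -0.66, 0.01 and 0.34, and Col4a5 minus Col4a6 stayed between -0.18 and 0.17. Among the measured members, Col3a1 and Col5a2 on chromosome 1, Col6a2 and Col6a1 on chromosome 10, Col4a1 and Col4a2 on chromosome 8, and Col4a6 and Col4a5 on chromosome X are neighbours with no other coding gene between them. Col4a1 and Col4a2 start on opposite strands, and the 300-base windows around their starts overlap by 78 bases. Neighbours thus included chains whose measured ratios lay apart in every pair, such as Col6a1 and the dim Col6a2. For Col4a5 and Col4a6 the difference depended on the probe, since the second Col4a6 probe averaged 0.29 against -0.27 for Col4a5.

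Genes that act on collagen were described by counts and medians, and none of them passed the adjusted threshold (limma). Of 35 genes for collagen folding, modification, secretion and crosslinking 33 were measured, with a median of -0.16 and pair medians of -0.16, -0.25 and 0.09. Without pair 2 the median was -0.07 and without pair 3 it was -0.24. The mean was below 0 for 24 of them (54.4% of all genes), and 17 were below 0 in pairs 1 and 2 and above 0 in pair 3 (12.6% of all genes). At an unadjusted p under 0.05 (limma) 3 were lower, near the 9.12% of all genes, and 0 were higher (8.23% of all genes). Those with the smallest p were P4ha2, a prolyl hydroxylase subunit (-0.45 ± 0.11, moderated SE, n = 3; limma adjusted p = 0.187), P3h4, a partner of the lysyl hydroxylase complex (-0.31 ± 0.08, adjusted p = 0.196), Fkbp10, a collagen chaperone (-0.32 ± 0.11, adjusted p = 0.250), and Crtap, of the prolyl 3-hydroxylation complex (0.22 ± 0.09, adjusted p = 0.289). Lox, which crosslinks fibrils and is named after its values were seen, was -1.02, -1.35 and 0.45, the sign pattern of Col1a1.

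Of 10 collagen receptor genes 7 were measured, with a median of -0.18 and pair medians of -0.22, -0.20 and 0.18. At an unadjusted p under 0.05 (limma) 1 was lower (9.12% of all genes) and 1 higher (8.23% of all genes). The receptor median was -0.07 without pair 2, -0.34 without pair 3 and -0.02 with the mean of a gene's probes. Ddr1, a receptor tyrosine kinase for collagen, was -0.39 ± 0.10 (moderated SE, n = 3; limma adjusted p = 0.193) and Lair1, an inhibitory receptor of leukocytes, 0.32 ± 0.09 (adjusted p = 0.208). Itga11 and Ddr2, both receptors for fibrillar collagen, were -0.17 ± 0.08 and -0.24 ± 0.12 (limma adjusted p = 0.332 and 0.372). Each of Ddr1, Lair1, Itga11 and Ddr2 kept its sign in all 3 pairs, with Ddr2 at -0.03 in pair 3.

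Of 13 genes for matrix metalloproteinases and their inhibitors 10 were measured, with a median of -0.02 (0.09 without pair 2 and -0.14 without pair 3). At an unadjusted p under 0.05 (limma) 2 were lower (9.12% of all genes) and 0 higher (8.23% of all genes). Mmp14, a membrane-anchored collagenase, was -0.34 ± 0.12 (moderated SE, n = 3; limma adjusted p = 0.253) and Timp1, an inhibitor, -0.33 ± 0.12 (adjusted p = 0.275), while Mmp9 was 0.28 ± 0.15 (adjusted p = 0.394) and Timp3 0.16 ± 0.09 (adjusted p = 0.412). All 16 transcription factor and TGF-beta signalling genes were measured, with a median of -0.11 (-0.05 without pair 2, -0.19 without pair 3 and 0.01 with the mean of probes). Again 2 were lower and 0 higher, beside the same shares of all genes. Ccn2, a matricellular target of TGF-beta, was -0.25 ± 0.09 (moderated SE, n = 3; limma adjusted p = 0.266), Tgfbr1 -0.29 ± 0.11 (adjusted p = 0.270), Sox9, the activator of Col2a1 and Col11a2, -0.29 ± 0.12 (adjusted p = 0.321) and Tgfb3 -0.22 ± 0.11 (adjusted p = 0.359).

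**Figure D3:**
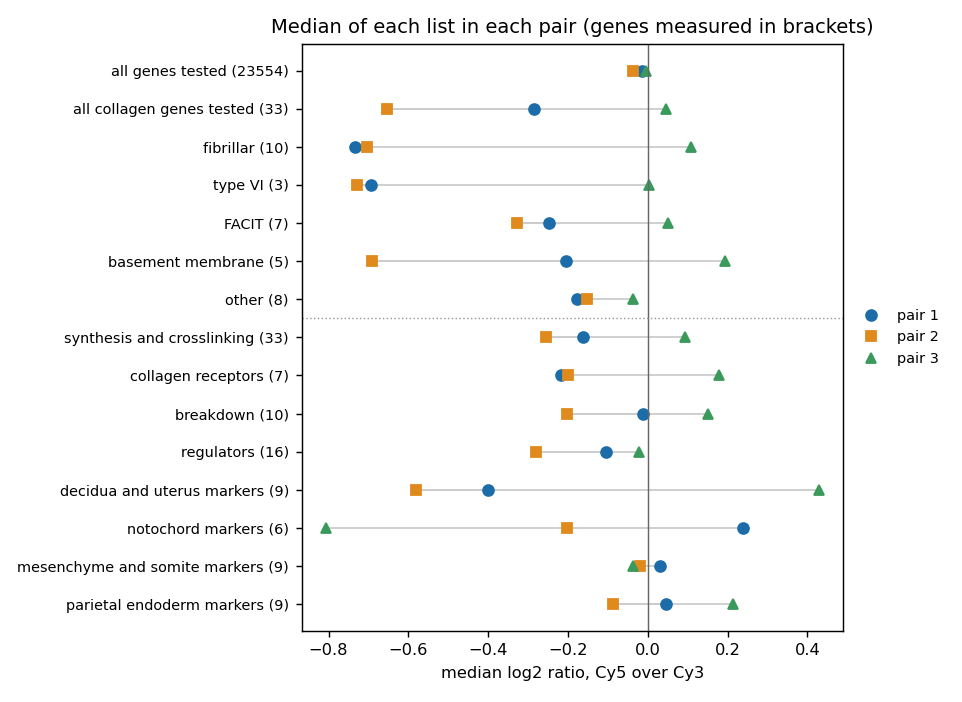
Median log2 ratio of Cy5 over Cy3 in each pair for all genes, for the collagen classes (upper block) and for pathway and cell type marker lists (lower block), with the number of genes measured in brackets. The fibrillar medians are -0.73, -0.70 and 0.11, the decidua and uterus medians -0.40, -0.58 and 0.43, with the same order of signs, while the notochord markers run from 0.24 to -0.81.

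Marker lists of other tissues moved with the pairs as well. In whole embryos, fewer cells of a type and less RNA per cell cannot be told apart. All 9 markers of decidua and uterus, maternal tissue that can adhere to a dissected embryo, were measured, with pair medians of -0.40, -0.58 and 0.43. Of the 9, 5 were below 0 in pairs 1 and 2 and above 0 in pair 3 (12.6% of all genes). The same split was seen in 4 of 6 endothelial and 3 of 9 parietal endoderm markers. It was seen in 1 marker each of surface epithelium, of mesenchyme and somite, and of trophoblast, and in no notochord or visceral endoderm marker. The summed intensity of the decidua and uterus markers was 35992 to 68473 in Cy3 and 43943 to 102046 in Cy5, and none of them was at background in both channels. Prl8a2, a decidual prolactin, was -0.74, -3.55 and 0.60, and Dcn, a proteoglycan that binds collagen fibrils and is also made by embryonic mesenchyme, was -1.05, -0.36 and 0.43. Others in the list went another way: Hoxa10 was 0.10, 0.16 and 1.25, Lum was -0.99, 0.25 and 0.87, and Prl3c1 and Pgr were above 0 in pair 1. The part of such tissue in the ratios of Col1a1, Col3a1, Col1a2 and Col6a3, which had the same signs, was not tested.

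The 9 mesenchyme and somite markers, by contrast, had pair medians of 0.03, -0.02 and -0.04, with summed intensities of 32225 to 50472 in Cy3 and 53314 to 70227 in Cy5. The 9 parietal endoderm markers had 0.05, -0.09 and 0.21 (summed intensity 112930 to 148050 in Cy3 and 195450 to 275514 in Cy5), beside the -0.20, -0.80 and 0.19 of Col4a1. The 6 endothelial markers had -0.24, -0.16 and 0.33 and the 6 surface epithelium markers -0.0027, -0.27 and 0.10. The 6 notochord markers ran from 0.24 in pair 1 to -0.20 in pair 2 and -0.81 in pair 3, with Shh at 0.27, -0.20 and -1.44, beside -0.16, -0.42 and -0.29 for Col2a1. The 8 visceral endoderm markers had medians of 0.18, 0.56 and 0.54. Of these, Rbp4 and Afp were brighter than 17, where all genes had medians of 0.88, 0.69 and 0.70. Ttr, Apoa1 and Cubn lay between 16 and 17, where all genes had 0.18, 0.04 and 0.10, and Amn, Apoa4 and Apob were dimmer. Of 7 trophoblast markers 5 were measured, with 0.14, -0.40 and 0.44. The part of any of these tissues in the collagen ratios was not tested either.

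**Figure D4:**
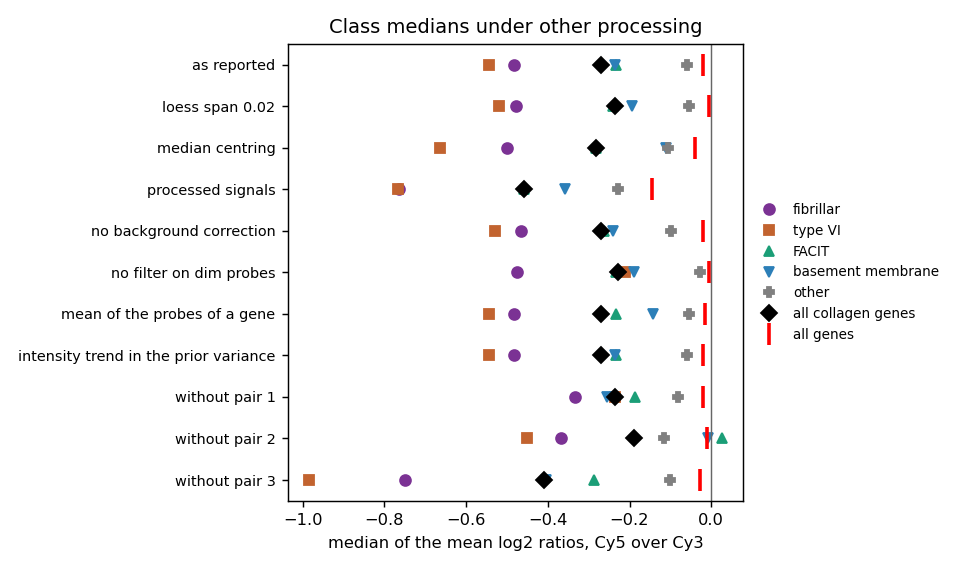
Median of the mean log2 ratios of each collagen class, of all measured collagen genes and of all genes under the reported processing and 10 alternatives, each on its own line. The collagen median lies between -0.46 (processed signals) and -0.19 (without pair 2), and the fibrillar median is at or below -0.33 throughout.

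Under each of the 10 alternatives the fibrillar median stayed below that of all measured collagen genes. The fibrillar median lay between -0.76 (processed signals) and -0.33 (without pair 1), and the median of all collagens between -0.46 and -0.19. On the processed signals the median of all genes itself moved to -0.14, and the collagen median relative to it was -0.31, against -0.25 under the reported processing.

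The deposited gene table of the authors lists 52 collagen probes. Its log2 ratios ran opposite to those given here, with Pearson's r of -0.802 across 39908 shared probes, and its direction and scale are not stated. Of the 33 measured collagen genes 25 had their probe in that table, all with the opposite sign, so with the table's sign turned the direction was the same for these 25. That table rests on the same 3 arrays and holds no probe with a p above 0.537 in the authors' own fit. The measured genes without their probe there had means near 0, from -0.06 for Col20a1 to 0.07 for Col25a1. The shared direction is therefore no independent check. The smallest adjusted p of a collagen probe in the authors' deposited table was 0.309, for Col9a3, which was too dim to be measured here. Over all probes of that table the smallest adjusted p was 0.264. Largest in size among the untested genes was Col6a6, a type VI chain: for 1 probe the authors' deposited table gives -2.71, while here the ratios were 0.54, 0.63 and 0.56 from intensities of 78 to 82.5 in Cy3 and 187 to 225 in Cy5. That probe was not well above background in either channel on any array, and the other Col6a6 probe averaged -0.00012.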

How the data were processed

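RNA of 3 pairs of mouse embryos was hybridised to 2-colour Agilent arrays. The scanner files hold median spot intensity, background-subtracted processed intensity and a log10 ratio per spot, made with Feature Extraction 10.7.3.1 on an mm9-based design per the file headers; the submitters' processing notes name limma. The authors' deposited gene table holds log2 ratios, with p-values, a moderated statistic and a log-odds score, whose scale, centring and direction are not stated. Here, median intensities were corrected by normexp (offset 50), normalized by within-array loess (span 0.3; controls and outlier spots at weight 0) and fitted with limma 3.58.1 in R 4.3.3 (intercept, moderated variance, two-sided, Benjamini-Hochberg adjustment over 23554 genes and transcripts; 15377 of them were named through RefSeq accessions in the GRCm38.p6 gene table, the others by the files' names). Of 55681 probes without controls, 31598 were well above background in 1 channel on at least 2 arrays, and the brightest stood for its gene. The number of arrays limits the precision. The script was tested on simulated data. Every measured collagen gene is named; values in each pair are given for up to 4 members of a class by smallest p, for those with probes on both sides of 0 and for others where said, and up to 4 members by smallest p are named in each pathway list. The members and lists were chosen with earlier results of these data known.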

Additional observations from a re-analysis of the deposited data

How the results depend on the processing

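The 10 alternatives were a loess span of 0.02, median centring in place of loess, the scanner's processed signals, no background correction, no filter on dim probes, the mean of a gene's probes, an intensity trend in the prior variance, and each pair left out. Over all genes 326 passed the adjusted threshold (limma) under the reported processing, 0 with a span of 0.02, 651 with median centring, 0 on processed signals, 201 with the mean of probes, 0 with an intensity trend and 0 to 0 with a pair left out; at an unadjusted p under 0.05 there were 4086, 3508, 2877, 4902, 3850, 3942 and 2125 to 3695. No collagen gene passed under the reported processing or any alternative, except 1 with no filter, Col6a6 (0.58 ± 0.08, moderated SE, n = 3; limma adjusted p = 0.0389), from the dim probe described above. With a pair left out the collagen median ranged from -0.41 to -0.19. Of 330 values of single genes under the 10 alternatives, 320 moved by less than 1 SD over pairs. That count does not measure stability. With 3 pairs, leaving 1 out cannot move a mean by 1 SD, and the intensity trend and the absent filter left each mean unchanged. Of the 330, 22 changed sign, among genes whose means lay between -0.24 and 0.07. Causes were not tested. Dim spots limit the 11 collagen genes that were not measured.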
